A study of Mus musculus with 8 samples.

Results

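The translation initiation and elongation factors are the proteins that load an mRNA onto the ribosome and move it along. Their genes were taken as the protein-coding genes whose symbol begins with Eif1 to Eif6 or with Eef1. Genes of the eIF2 kinases (Eif2ak), the eIF4E-binding proteins (Eif4ebp), the eEF1A methyltransferases (Eef1akmt) and Y-linked genes were left out. This gave 72 of the 55414 genes in the count table. Of these, 49 passed the filter on low counts and were among the 11929 genes tested, and 18 had 0 counts in all libraries. The counts came from 8 RNA-seq libraries of Paneth cells, secretory cells that sit at the crypt base and release antimicrobial peptides, collected from small intestine of mice by FACS. Of these, 4 libraries came from mice of the genotype DT TG, with diphtheria toxin in Paneth cells (TG), and 4 from wild type mice (WT). The study lists these data as coming from cells purified after depletion of mature Paneth cells, so that the sorted TG cells are those found after it. It gives C57BL/6J mice for its Paneth cell sorts in general, without a strain for the TG mice. The sources used here name neither the promoter that drives the toxin nor the age of the mice, and whether the sorted TG cells made the toxin was not checked. The study describes its sequenced samples, of which these are a part, as each taken from a single mouse, while the labels of these libraries name no animals. The p-values measure the spread between these libraries.

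Translation starts when eIF2 brings the initiator tRNA to the small ribosomal subunit, while eIF1, eIF1A, eIF3 and eIF5 prepare the subunit for scanning. The eIF4 proteins recognise the cap of the mRNA, unwind its leader and recruit the loaded subunit, and eIF5B joins the large subunit. Then eEF1A delivers each aminoacyl-tRNA and eEF2 moves the ribosome by a codon. Diphtheria toxin stops this last step, because it ADP-ribosylates eEF2, the product of Eef2. Paneth cells make and secrete large amounts of antimicrobial protein.

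Total counts were 13107397 to 16218434 per library. The Paneth cell genes Lyz1, Defa24 and Itln1 and 5 further markers together took 352008 to 530891 CPM (counts scaled to library size) in every library, so the labelled cell type was seen in all of them. Of 4 Y-linked genes, 0 counts were found in replicates 1 and 2 and 897 to 1564 in replicates 3 and 4, in TG as in WT, so that this difference was balanced. All levels below are CPM scaled with TMM factors, and each log2 fold change is TG over WT from 1 edgeR quasi-likelihood fit across all tested genes. A gene is called when its Benjamini-Hochberg adjusted p is below 0.05.

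A larger share of the factors than of all tested genes was lower in TG. Of the 49 tested members, 17 (34.7%) were called lower in TG, against 9.65% of all tested genes, and 0 were called higher, against 8.26% of all tested genes. At an unadjusted p below 0.05, 1 member (Eif4a2) was higher and 27 were lower. Of all 11929 tested genes, 985 were called higher and 1151 lower, and 1807 more passed this unadjusted cut. DESeq2 called 24 members lower, against 9.999% of all genes it tested, and 0 higher, against 8.14%. Among the called members, Eif1a fell by 38.9% and Eef1e1 fell by 37.7%, the largest decreases, and Eif3g fell by 18.1%, the smallest. The fitted log2 fold change was below 0 for 45 of the 49 members, against 48.7% of all tested genes. All TG libraries lay below all WT libraries in CPM for 22 members (44.9%), against 12.01% of all tested genes, and above them for 0, against 10%. The median log2 fold change was -0.23 over the members and 0.01 over all tested genes. In bulk samples, fewer cells that express a gene and less of its RNA per cell cannot be told apart.

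The number of calls depended on the scaling. When libraries were scaled by total counts alone, the median of all tested genes moved from 0.01 to 0.12 and that of the members from -0.23 to -0.11, so that the members lay 0.23 below all genes in place of 0.24. All 17 called members were still fitted below 0, but only 2 (Eif1a and Eef1e1) were called lower, when 2.20% of all tested genes were called lower and 6.60% higher. Without TG replicate 1 there were 8 calls, against 4.61% of all tested genes, and without TG replicate 2 there were also 8, against 4.72%, while 21 were called without WT replicate 2, against 9.76%. The decreases below are thus relative to the other genes of the library.

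**Figure D1:**
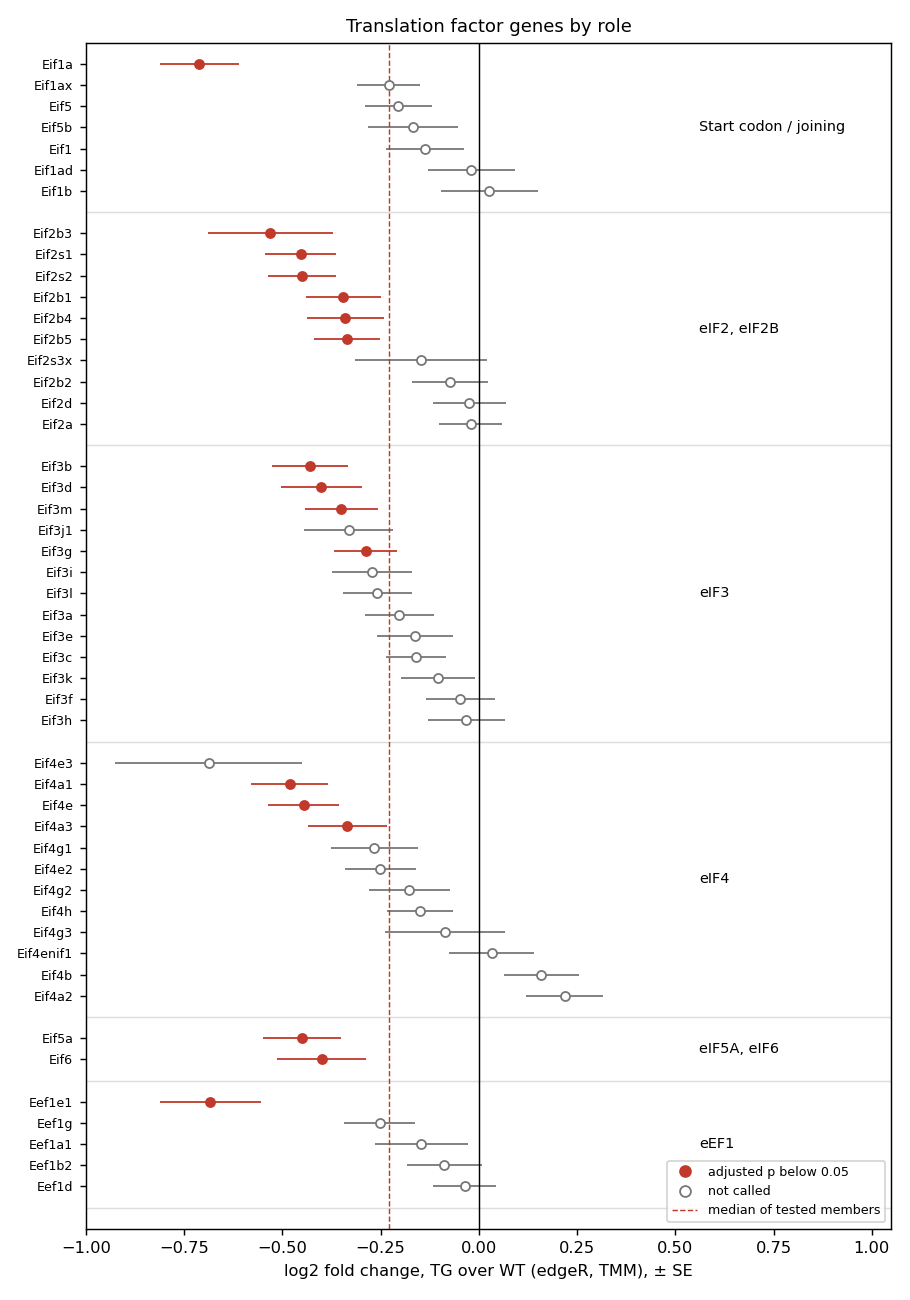
Log2 fold change of TG over WT (x axis, edgeR with TMM factors) with its SE for the 49 tested translation factor genes, grouped by role (y axis); filled points have an adjusted p below 0.05. The 17 called genes all lie below 0, 4 open points lie above 0, and the dashed line is the members' median of -0.23. With total counts alone that median is -0.11 and 35 of the 49 lie below 0, against 4023 of all 11929 tested genes.

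Of the 17 calls, 6 fell among the genes of the ternary complex and its exchange factor. eIF2 is a trimer that binds GTP and the initiator tRNA, and eIF2B is the exchange factor, built from 5 kinds of subunit, that recharges it with GTP. Of the 10 tested genes of this role, 6 (60%) were called lower, against 9.65% of all tested genes, among them 2 of the 3 eIF2 subunits and 4 of the 5 eIF2B subunits. The median log2 fold change was -0.45 over the eIF2 subunits and -0.34 over the eIF2B subunits, and -0.33 and -0.23 with total counts.

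Eif2s1 (ENSMUSG00000021116, chromosome 12, 78907681 to 78935018, plus strand) encodes the alpha subunit of eIF2, which stress kinases phosphorylate. Its CPM was 32.1, 32.1, 37.6 and 32.05 in TG replicates 1 to 4 and 49.9, 41.9, 45.99 and 45.5 in WT replicates 1 to 4. All TG libraries lay below all WT libraries, and TG replicate 3 stood above the other TG libraries. The log2 fold change was -0.45 ± 0.09 (SE, n = 4 each), with an edgeR adjusted p of 0.00462. Eif2s2 (ENSMUSG00000074656, chromosome 2, 154713330 to 154734855, minus strand), the beta subunit, had 56.6, 59.7, 61.96 and 65.5 CPM in TG and 93.02, 81.9, 76.2 and 82.1 CPM in WT. Again the groups did not overlap, with a log2 fold change of -0.45 ± 0.09 (SE) and an edgeR adjusted p of 0.00384. Eif2s3x, the X-linked gene of the gamma subunit, did not follow them. Its CPM was 16.5, 18.6, 12.2 and 11.8 in TG and 19.5, 18.4, 14.8 and 12.9 in WT, the ranges overlapped, and the edgeR adjusted p was 0.574. In both groups its replicates 1 and 2, without Y-linked counts, were its highest libraries.

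Among the eIF2B genes, Eif2b5, which encodes the catalytic epsilon subunit, had 41.1, 38.8, 39.2 and 45.3 CPM in TG and 52.3, 54.7, 51.01 and 49.3 CPM in WT. No TG library reached the lowest WT library, and the log2 fold change was -0.34 ± 0.08 (SE, edgeR adjusted p 0.0147). Eif2b3, the gamma subunit that joins epsilon in the catalytic arm, had 6.9998, 6.54, 9.87 and 8.43 CPM in TG and 13.3, 9.39, 10.96 and 12.6 CPM in WT. Its TG replicate 3 lay above WT replicate 2, so the ranges overlapped, although the log2 fold change of -0.53 ± 0.16 (SE) was called with an edgeR adjusted p of 0.0333. The regulatory subunits alpha and delta come from Eif2b1 and Eif2b4. Eif2b1 had 31.6, 33.1, 36.3 and 36.4 CPM in TG and 49.03, 39.7, 45.7 and 40.1 CPM in WT (log2 fold change -0.34, edgeR adjusted p 0.0227). Eif2b4 had 29.1, 27.8, 32.9 and 30.98 CPM in TG and 44.8, 36.5, 35.4 and 36.2 CPM in WT (log2 fold change -0.34, edgeR adjusted p 0.0283), and neither gene's groups overlapped. The regulatory beta subunit gene Eif2b2 was not called, with 16.6 to 18.5 CPM in TG and 16.6 to 19.4 in WT and an edgeR adjusted p of 0.633. The 4 eIF2B calls were lost without TG replicate 1 and without TG replicate 2. Without WT replicate 1 those of Eif2b3 and Eif2b4 were lost as well, and without WT replicate 4 that of Eif2b3. Those of Eif2s1 and Eif2s2 were kept whichever library was left out. The spans of Eif2s1, Eif2b1 and Eif2b4, from gene start to end, overlap exons of other genes on the opposite strand (Atp6v1d and Plek2, Ddx55 and Gtf2h3, and Snx17). Overlap with the members' own exons was not checked, and the sources used here do not say whether the counting used strand. Eif2a and Eif2d, which can deliver initiator tRNA without eIF2, lay near 0, with log2 fold changes of -0.02 (edgeR adjusted p 0.882) and -0.02 (edgeR adjusted p 0.881).

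**Figure D2:**
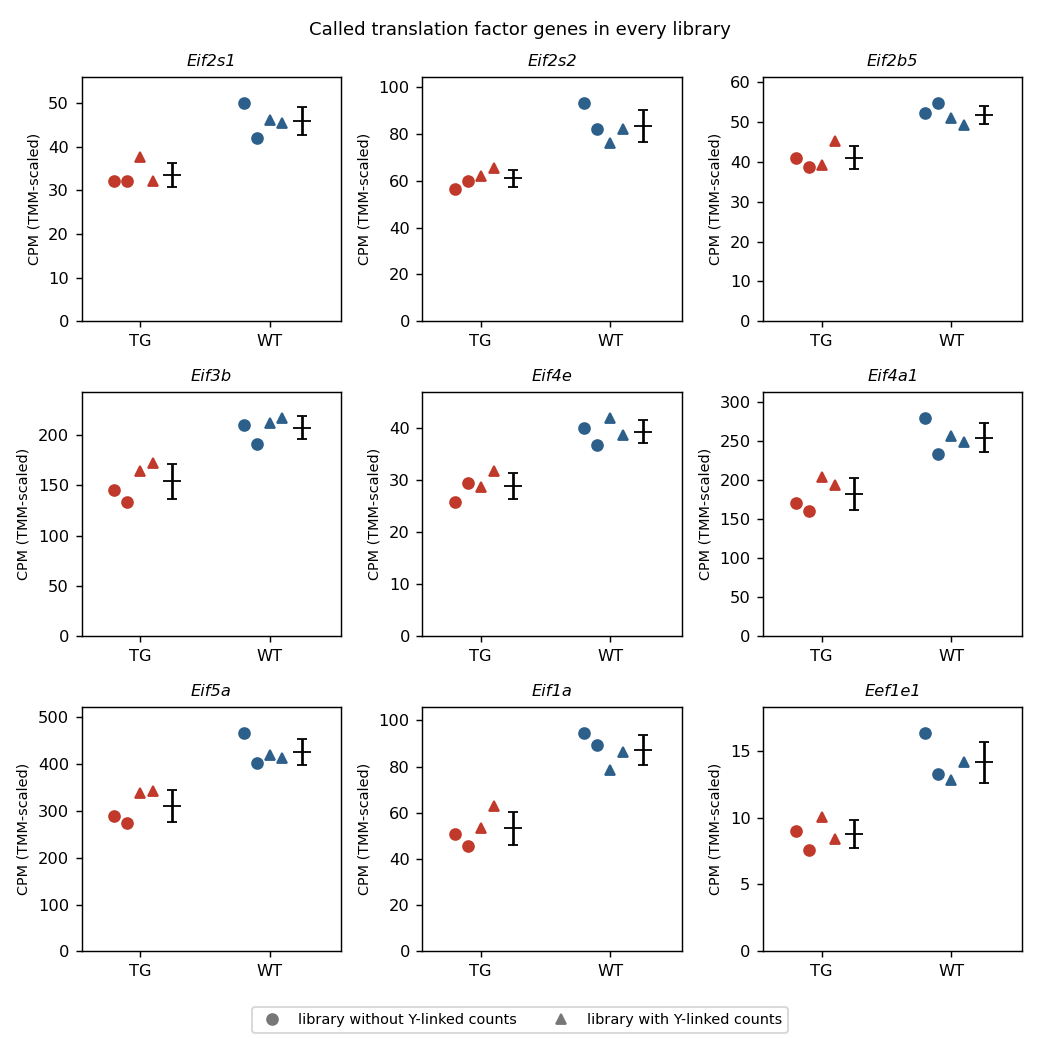
CPM with TMM factors (y axis, from 0) of 9 called genes in each of the 4 TG and 4 WT libraries, with the mean and SD of each group in black; circles are libraries without and triangles libraries with Y-linked counts. In each panel every TG point lies below every WT point, for instance 32.0 to 37.6 against 41.9 to 49.9 CPM for Eif2s1.

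eIF3 is the largest initiation factor and the scaffold of the scanning complex. Of its 13 tested subunit genes, 4 (30.8%) were called lower, against 9.65% of all tested genes. All 13 were fitted below 0, against 48.7% of all tested genes, and with total counts 10 of 13 were, against 4023 of 11929. Of the 8 genes of the structural octamer (Eif3a, c, e, f, h, k, l and m), 1 was called, Eif3m. Of the 3 genes of the b, g and i module, 2 were called, and so was Eif3d, whose product touches the cap. DESeq2 called 4 octamer genes in place of 1, and the difference between the modules was not tested.

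Eif3b (ENSMUSG00000056076, chromosome 5, 140405057 to 140429117, plus strand) encodes the scaffold of the b, g and i module. It had 146, 133, 164 and 172 CPM in TG and 209.7, 191, 212 and 216 CPM in WT, without overlap, and a log2 fold change of -0.43 ± 0.10 (SE, edgeR adjusted p 0.00817). Its call was kept in all 8 fits with 1 library removed. Eif3d, called with a log2 fold change of -0.40 ± 0.10 (SE, edgeR adjusted p 0.01699), had 72.1, 69.6, 81.8 and 88.2 CPM in TG and 110.4, 86.6, 111 and 103 in WT, and TG replicate 4 lay above WT replicate 2. For Eif3m the values were 49.1, 49.9, 56.7 and 56.7 CPM in TG and 74.8, 59.1, 70.1 and 66.8 CPM in WT (log2 fold change -0.35, edgeR adjusted p 0.0194). For Eif3g, an RNA-binding subunit, they were 47.1, 47.8, 51.8 and 51.3 CPM in TG and 61.2, 56.4, 62.97 and 61.2 CPM in WT (log2 fold change -0.29, edgeR adjusted p 0.0235). The groups overlapped for neither Eif3m nor Eif3g. The calls of Eif3d, Eif3m and Eif3g were lost without TG replicate 1 and without TG replicate 2, and that of Eif3g also without WT replicate 4. The span of Eif3m overlaps exons of Ccdc73 on the opposite strand.

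Eif3a, the largest subunit and the base of the octamer, had 264, 248, 258 and 261 CPM in TG and 265, 311, 295 and 315 CPM in WT. The highest TG library was just below the lowest WT library, and the log2 fold change of -0.20 ± 0.09 (SE) was not called (edgeR adjusted p 0.1202). Eif3l and Eif3j1 stood just outside the threshold, at -0.26 (edgeR adjusted p 0.0545) and -0.33 (edgeR adjusted p 0.0561) on the log2 scale. Eif3f and Eif3h were nearest to 0, at -0.05 and -0.03. Eif3i, Eif3e, Eif3c and Eif3k made up the rest, with log2 fold changes of -0.27, -0.16, -0.16 and -0.10.

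The eIF4 group reads the cap and opens the mRNA leader. Of its 12 tested genes, 3 (25%) were called lower (Eif4e, Eif4a1 and Eif4a3), against 9.65% of all tested genes, and 3 were fitted above 0 without a call (Eif4a2, Eif4b and Eif4enif1). Eif4e (ENSMUSG00000028156, chromosome 3, 138231936 to 138265457, plus strand) encodes the cap-binding protein. It had 25.7, 29.5, 28.6 and 31.7 CPM in TG and 40.1, 36.7, 41.9 and 38.7 CPM in WT. Every TG library lay below every WT library, with a log2 fold change of -0.45 ± 0.09 (SE, edgeR adjusted p 0.00492). Eif4g1, the scaffold that holds the cap-binding protein, the helicase and eIF3 together, had 422, 387, 457 and 443 CPM in TG and 413, 547, 576 and 519 CPM in WT. WT replicate 1 fell among the TG libraries, and the log2 fold change of -0.27 ± 0.11 (SE) was not called (edgeR adjusted p 0.109). Without WT replicate 1, Eif4g1 was called lower. Its relatives Eif4g2 and Eif4g3 were at -0.18 (edgeR adjusted p 0.246) and -0.09 (edgeR adjusted p 0.729). The further cap-binding proteins Eif4e2 and Eif4e3 were at -0.25 (edgeR adjusted p 0.0676) and -0.69 (edgeR adjusted p 0.0578), both just outside the threshold. Eif4e3 was the least abundant tested member per length of transcript. Eif4h and Eif4b, which aid the helicase, were at -0.15 (edgeR adjusted p 0.2304) and 0.16 (edgeR adjusted p 0.262).

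Of the helicase genes of the cap complex, Eif4a1 was called lower and Eif4a2 was not. Eif4a1 (ENSMUSG00000059796, chromosome 11, 69557762 to 69563249, minus strand) and Eif4a2 encode paralogs of eIF4A, the DEAD-box helicase of the cap complex. Eif4a1 had 171, 161, 205 and 194 CPM in TG and 279.6, 234, 257 and 249.6 CPM in WT, with no overlap and a log2 fold change of -0.48 ± 0.10 (SE, edgeR adjusted p 0.005203). Eif4a2 had 207, 196, 179 and 197 CPM in TG and 145, 189, 157 and 179 CPM in WT. Here TG replicate 3 lay below WT replicate 2, and the log2 fold change of 0.22 ± 0.10 (SE) was not called (edgeR adjusted p 0.135). The ratio of the paralogs within a library does not depend on the scaling. Per kilobase of transcript, there were 0.878, 0.882, 0.632 and 0.737 Eif4a2 counts for each Eif4a1 count in TG, and 0.375, 0.587, 0.443 and 0.519 in WT. The ratio was higher in all 4 TG libraries than in any WT library. Its log2 mean was -0.37 ± 0.23 in TG and -1.08 ± 0.28 in WT (mean ± SD, n = 4 per group), a difference of 0.71, or 1.64-fold, which was not tested. Among libraries lacking Y-linked counts the difference was 0.91 and among the others 0.51, and 0.60 to 0.81 when 1 library was left out. Reads of near-identical copies can be split between the eIF4A genes and their pseudogenes, and the span of Eif4a2 overlaps exons of Rfc4. Eif4a3, a relative that belongs to the exon junction complex and not to the cap complex, had 45.1, 41.2, 48.5 and 51.7 CPM in TG and 68.5, 54.95, 58.6 and 53.2 CPM in WT. Its groups did not overlap (log2 fold change -0.33, edgeR adjusted p 0.0332), but its call was lost in 5 of the 8 fits with 1 library removed. Of the other paralog ratios, Eif1b to Eif1, Eif4g3 to Eif4g1, Eif4e2 to Eif4e and Eif4e3 to Eif4e overlapped between the groups.

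**Figure D3:**
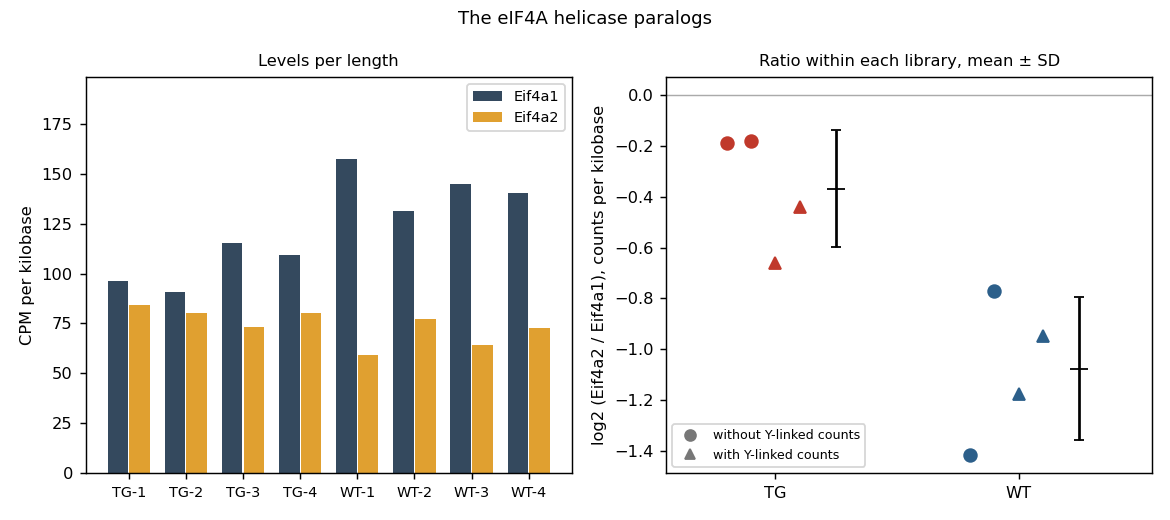
Left, CPM per kilobase of transcript (y axis, from 0) of Eif4a1 and Eif4a2 in each library; right, log2 ratio of Eif4a2 to Eif4a1 counts per kilobase (y axis) by group, with mean and SD in black and the libraries with Y-linked counts as triangles. Eif4a1 exceeds Eif4a2 in all 8 libraries, and the 4 TG ratios (log2 mean -0.37) lie above the 4 WT ratios (log2 mean -1.08).

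Eif4e, Eif4a1 and Eif5a were the called members with a CACGTG box at their promoters, and their windows are shown beside 1 of the windows of Eif4g1, which was not called, so that the letters around the box can be read. CACGTG is the E-box that MYC and related factors are known to bind, and it reads alike on both strands. It was searched for in the RefSeq promoter sequences (GRCm38.p6), from 250 bases before to 50 bases after each start. Windows of 30 bases were then placed in the GRCm39 genome by an exact match, and the capitals mark the box.
Eif4e, chr3:138232789-138232818, plus strand: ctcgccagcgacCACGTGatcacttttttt
Eif4e, chr3:138232953-138232982, plus strand: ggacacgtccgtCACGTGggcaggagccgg
Eif4a1, chr11:69563421-69563450, minus strand: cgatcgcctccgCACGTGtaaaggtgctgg
Eif5a, chr11:69812269-69812298, minus strand: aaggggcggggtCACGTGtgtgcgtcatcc
Eif5a, chr11:69811617-69811646, minus strand: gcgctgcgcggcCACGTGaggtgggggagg
Eif4g1, not called, chr16:20491411-20491440, plus strand: ggcagtgggtgtCACGTGatggggcggagc

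The boxes of Eif4e lay 228 and 64 bases before the start, that of Eif4a1 189 bases before it, and those of Eif5a 74 and 178 bases before 2 different starts. Of the called members, 14 had a promoter in the table and 3 of these (21.4%) held the box. Of the members that were not called, 25 had one and 6 (24%) held the box, namely Eif4g1, Eif3a, Eif4h, Eif3k, Eif3f and Eif1b. Among all tested genes 1107 of 9241 promoters (11.98%) held it, and among all genes with a promoter sequence 8.09%. The called members thus held it at a share like that of the other members, and a match of letters does not show that a factor was bound.

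Among the factors of start codon recognition and subunit joining, 1 of 7 tested genes (14.3%) was called lower, near the 9.65% of all tested genes. Eif1a, which had the largest decrease of all members, encodes eIF1A, the partner of eIF1 in scanning. It had 50.8, 45.8, 53.6 and 62.9 CPM in TG and 94.4, 89.4, 78.7 and 86.3 CPM in WT. The groups did not overlap, and the log2 fold change was -0.71 ± 0.10 (SE, n = 4 each) with an edgeR adjusted p of 0.000811. Its near-identical X-linked paralog Eif1ax had a log2 fold change of -0.23 ± 0.08 (SE, edgeR adjusted p 0.0608) and was not called. Nothing says how the counting treated reads that fit both genes, so the split between them is uncertain. Eif1, which guards the choice of start codon, had 188, 182, 175 and 221 CPM in TG and 229, 211, 185 and 219 CPM in WT, and its ranges overlapped (log2 fold change -0.14, edgeR adjusted p 0.355). Eif5, the GTPase activator of eIF2, had a log2 fold change of -0.20 with separate ranges but an edgeR adjusted p of 0.105. Eif5b, Eif1b and Eif1ad had log2 fold changes of -0.17, 0.03 and -0.02, and their ranges overlapped.

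Both tested genes of eIF5A and eIF6 were called lower, against 9.65% of all tested genes, a share that rests on 2 genes here. Eif5a (ENSMUSG00000078812, chromosome 11, 69807422 to 69827276, minus strand) encodes the hypusine-carrying factor that helps stalled ribosomes to go on, and it was the second most abundant member per length. Its CPM was 289.6, 275, 338 and 343 in TG and 466, 403, 419 and 414 in WT. The highest TG library stayed below the lowest WT library, and the log2 fold change was -0.45 ± 0.10 (SE, edgeR adjusted p 0.00803). The span of Eif5a overlaps exons of Gps2 and Ybx2 on the opposite strand. Eif6 keeps the large ribosomal subunit from joining too early and serves in its assembly. Its CPM was 49.999, 48.3, 54.1 and 55.97 in TG and 85.2, 61.5, 70.9 and 57.4 in WT, without overlap, and the log2 fold change was -0.40 ± 0.11 (SE, edgeR adjusted p 0.0264). The call of Eif6 was lost in 4 of the 8 fits with 1 library removed, and that of Eif5a in 0 of 8.

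Of the 5 tested eEF1 genes, 1 (20%) was called lower, against 9.65% of all tested genes. Eef1a1, the tRNA carrier and by far the most abundant member, had 2282, 2468, 2263 and 2442 CPM in TG and 2884, 2321, 2482 and 2777 CPM in WT. WT replicate 2 lay among the TG libraries, and the log2 fold change of -0.15 ± 0.12 (SE) had an edgeR adjusted p of 0.408. Eef1a1 has many processed pseudogenes, so that its count is uncertain. Of the exchange factor subunits that recharge eEF1A, Eef1b2, Eef1d and Eef1g were at -0.09, -0.04 and -0.25 on the log2 scale, with 0.5495, 0.7903 and 0.0627 as their edgeR adjusted p. Eef1e1 (ENSMUSG00000001707, chromosome 13, 38828183 to 38843034, minus strand) was the exception and was called. In spite of its symbol, it encodes AIMP3, an auxiliary protein of the multi-tRNA synthetase complex, and not an elongation factor. It had 8.9998, 7.59, 10.04 and 8.43 CPM in TG and 16.3, 13.3, 12.8 and 14.1 CPM in WT. The groups did not overlap, the log2 fold change was -0.68 ± 0.13 (SE, edgeR adjusted p 0.00344), and the call was kept in all 8 fits with 1 library removed.

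Some of these genes make mRNAs with a 5′ terminal oligopyrimidine (TOP) tract, which are known to be translated together with those of the ribosomal proteins. Of the 8 members listed as TOP mRNAs (Eef1a1, Eef1b2, Eef1d, Eef1g, Eif3e, Eif3f, Eif3h and Eif4b), 0 were called by edgeR, and 1 (Eef1g) had an unadjusted p below 0.05. Over 8 genes, 0 calls are near the 9.65% of all tested genes called lower. DESeq2 called Eef1g lower. Of the other 41 tested members 17 (41.5%) were called lower, against 9.65% of all tested genes. The median log2 fold change was -0.07 over the TOP members, which turned to 0.05 with total counts, and -0.27 over the others, which became -0.15 with total counts. Over 80 tested genes of cytosolic ribosomal proteins, 5 (6.25%) were called lower by edgeR, against 9.65% of all tested genes, and 6 by DESeq2, with a median of -0.14, or -0.02 with total counts. Of these 80 genes, 78 were fitted below 0, against 48.7% of all tested genes. With total counts 53 were, against 4023 of 11929 tested genes. A fit below 0 was thus not particular to the translation factors. No test of the difference between these lists was made.

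**Figure D4:**
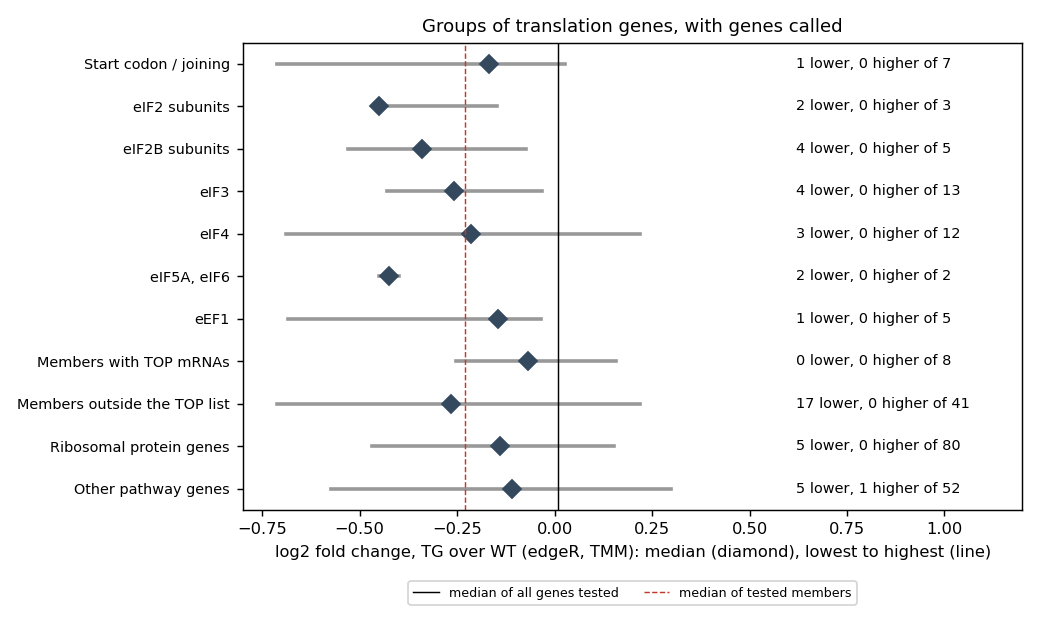
Median (diamond) and range (line) of the log2 fold change of TG over WT (x axis, edgeR with TMM factors) for each group of genes (y axis), with the number of genes called at the right. The eIF2 subunits (median -0.45), eIF5A with eIF6 (-0.42) and the eIF2B subunits (-0.34) lie farthest below the median of all tested genes (0.01), and of the groups shown the TOP members (-0.07) lie nearest to it; with total counts the TOP members turn to 0.05.

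Genes that act on or beside these factors were called lower at a share close to that of all genes. Of 54 listed genes 52 were tested, and 5 were called lower (9.62%) and 1 higher, against 9.65% and 8.26% of all tested genes. The median log2 fold change was -0.11 and turned to 0.00 with total counts. Abce1, which splits ribosomes after termination so that they can start again, had 104, 101, 113 and 115 CPM in TG and 164, 159, 159 and 164 CPM in WT. Its groups lay far apart, with a log2 fold change of -0.57 ± 0.08 (SE, edgeR adjusted p 0.000751). Gspt1, the release factor eRF3a, had 99.1, 88.6, 105 and 99.7 CPM in TG and 134, 143, 142 and 142 CPM in WT (log2 fold change -0.51 ± 0.08 SE, edgeR adjusted p 0.00157), without overlap. Both were also called with total counts. Dhx29, a helicase for structured leaders, had 16.9, 15.6, 19.2 and 18.7 CPM in TG and 24.03, 26.7, 26.01 and 22.9 CPM in WT (log2 fold change -0.50, edgeR adjusted p 0.004701). Bzw2, a mimic of eIF5, had 27.6, 30.01, 29.1 and 27.4 CPM in TG and 41.8, 33.9, 41.8 and 35.8 CPM in WT (log2 fold change -0.42, edgeR adjusted p 0.00771). For both genes the groups were apart.

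Regulators of the factors showed smaller differences. Eif2ak3, which encodes PERK, the eIF2 kinase of the endoplasmic reticulum, had 71.4, 66.8, 64.7 and 71.3 CPM in TG and 77.1, 90.01, 77.5 and 88.2 CPM in WT, with no overlap (log2 fold change -0.28, edgeR adjusted p 0.0354). It was the 1 gene called among the 7 eIF2 kinase, phosphatase and Atf4 genes (14.3%), near the 9.65% of all tested genes called lower. Pdcd4, whose product binds eIF4A and blocks its helicase activity, was the 1 gene called higher. It had 175, 194, 169.8 and 159 CPM in TG and 126, 146, 148 and 146 CPM in WT, and every TG library lay above every WT library (log2 fold change 0.30, edgeR adjusted p 0.0353). Its call was lost in 5 of the 8 fits with 1 library removed, as was that of Eif2ak3. Pdcd4 was the 1 gene called among 11 tested genes of eIF4E and eIF4A regulators, mTORC1 and the MNK kinases, near the 8.26% of all tested genes called higher. Eef2, the target of the toxin, had 1669.8, 1807, 1695 and 1778 CPM in TG and 1943, 1629, 1737 and 1872 CPM in WT. The ranges overlapped, the log2 fold change of -0.05 turned to 0.074 with total counts, and the edgeR adjusted p was 0.794. Of the 8 mitochondrial translation factors, 0 were called by edgeR, against 9.65% of all tested genes lower and 8.26% higher. Of these 8, 1 (Gfm1) had an unadjusted p below 0.05, and DESeq2 called 0.

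Levels between genes can be compared only per length. Per kilobase of the canonical transcript, Eef1a1 had 1318 ± 59.4 CPM in TG and 1458 ± 145 in WT (mean ± SD, n = 4 per group). Eif5a followed with 228 ± 24.98 and 311 ± 20.4 CPM per kilobase in TG and WT, and then Eif1 with 141 ± 15.003 and 155 ± 14.1. Eef1b2, Eef1g and Eif4a1 had means over all libraries of 132, 125 and 123 CPM per kilobase, and from Eif1 to Eif4a1 neighbours in this order lay within the sum of their SDs in both groups. At the other end stood Eif4e3 with 1.65 ± 0.424 and 2.66 ± 0.8599 CPM per kilobase in TG and WT. Called and other tested members had similar median levels, 32.4 and 31.4 CPM per kilobase, both above the 4.70 of all tested genes. Their median transcript lengths were 2165 and 2740 bases, against 3367 for all tested genes. The members' summed share of all counts was 0.802 ± 0.0343% in TG and 0.846 ± 0.0751% in WT (mean ± SD, n = 4 per group). The lowest and highest libraries were at 0.7705 and 0.838% in TG and at 0.771 and 0.948% in WT, so that the groups overlapped. Eef1a1 alone held 27.9 to 32.5% of the members' counts. Of the counts outside the alpha-defensin genes, the dominant transcripts of Paneth cells, the members took 1.08, 1.15, 1.14 and 1.07% in TG and 1.16, 1.18, 1.28 and 1.18% in WT, which did not overlap.

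The decreases were of the same sign in the libraries with and without Y-linked counts. All 17 called members were fitted below 0 in both, with a median over all tested members of -0.24 without and -0.17 with Y-linked counts. With 2 libraries per group, 10 members were called lower in the libraries without Y-linked counts, where 5.29% of all tested genes were called lower. In those with Y-linked counts edgeR called 0 lower, where 0.857% of all tested genes were called lower, and 14 members had an unadjusted p below 0.05. The share of all tested genes at that unadjusted cut was not worked out, so nothing is concluded from the 14. The interaction of group and Y-linked counts was called for 0 members, with 1 at an unadjusted p below 0.05, and for 3 of the 11929 genes (0.0251%).

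Markers of enterocytes moved with the groups. Of 11 listed genes 4 were called higher in TG (Alpi, Apob, Mttp and Apoa4), against 8.26% of all tested genes. DESeq2 called 8 higher, against 8.14% of all genes it tested. The summed level of the list was 451 to 649 CPM in TG and 447 to 512 CPM in WT. Without Vil1, which all cells of this epithelium can express, it was 121 to 263 CPM in TG and 54.7 to 107 CPM in WT, and 0 of these genes were at 0 counts in all libraries. Of the 8 Paneth cell markers, 3 were called lower (Mmp7, Ang4 and Mptx2), against 9.65% of all tested genes. DESeq2 called 4 of them lower, against 9.999% of all genes it tested. The 6 immune markers held 5 to 24 counts per library, with Adgre1 at 0, and 0 of them were tested by edgeR. Of the goblet, tuft, proliferation and enteroendocrine lists 0 genes were called by edgeR or by DESeq2, with 1 (a goblet gene) at an unadjusted p below 0.05. Of the 5 stem cell markers, Axin2 was called higher and Smoc2 lower. The part of these markers in the lower levels of the translation factors was not tested.

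**Figure D5:**
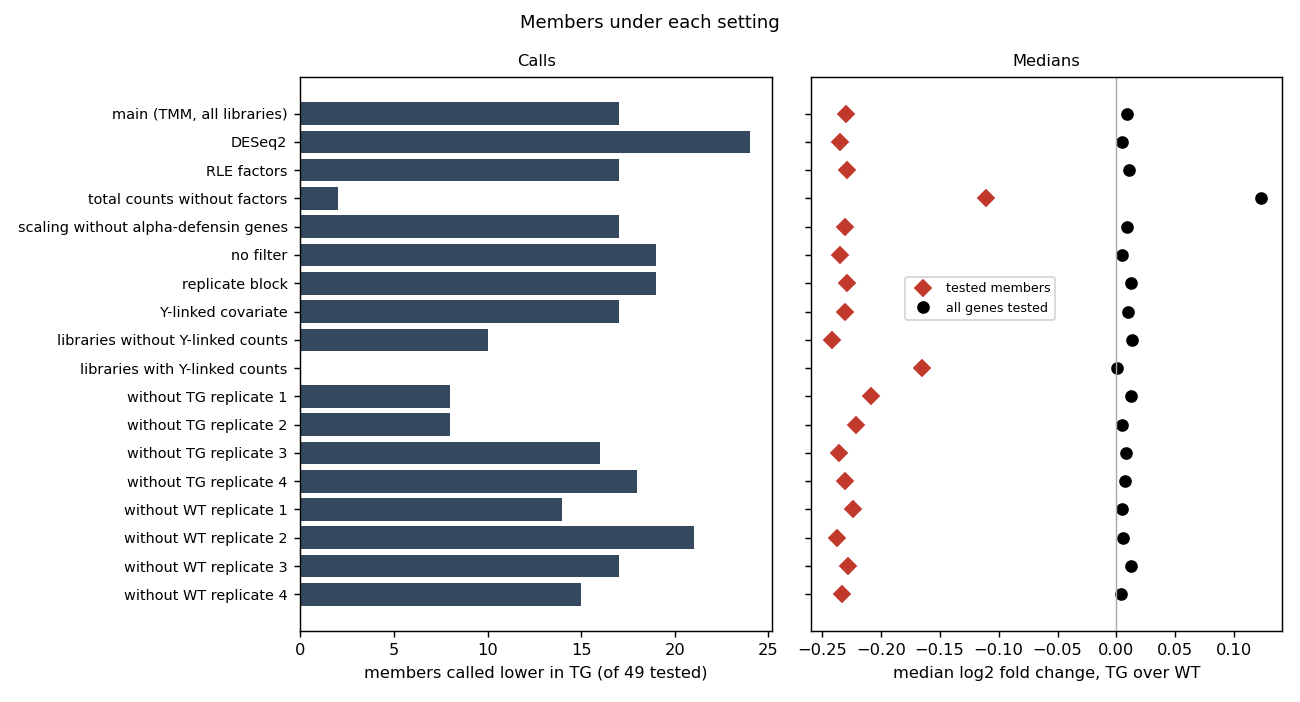
Members called lower in TG of the 49 tested (left, bars from 0) and median log2 fold change of the tested members and of all tested genes (right, x axis) under each setting (y axis). The count runs from 0 with only the libraries with Y-linked counts to 24 with DESeq2, and the members' median stays below that of all genes under each of the settings shown, including total counts (-0.11 against 0.12).

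The 23 members that were not tested had few or no counts. Eef1a2, the muscle and nerve form of Eef1a1, had 0 counts in all libraries, and Eif5a2, the paralog of Eif5a, had 0 to 5 counts per library. Eif3j2, a near-identical copy of Eif3j1, had 6 to 18 counts per library. The germ cell form Eif4e1b and the Eif4a3-like gene Eif4a3l1 had 0 counts, and Eif4a3l2 had at most 2. Of the others, 16 were Eif1ad paralogs on chromosome 12, which held at most 2 counts per library, and Eef1ece2 was a readthrough gene at 0 counts.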

How the data were processed

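RNA from FACS-sorted Paneth cells of 4 TG and 4 WT mouse samples had been made into libraries with the Illumina TruSeq stranded kit for mRNA. The authors deposited 1 table of raw counts per Ensembl gene and library. The submitters' processing notes list FastQC 0.12.0, STAR 2.7.0a, DESeq2 and the build mm39 without their roles; the counting tool, its annotation and its use of strand were not given in the sources used here, nor was its treatment of reads with several alignments. Such choices can move counts between near-identical or overlapping genes. Gene symbols, positions and canonical transcript lengths came from GENCODE M39 (GRCm39), which named 54749 of 55414 IDs, and the others held at most 0.0150% of a library's counts.

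Groups and replicate numbers came from the labels. Counts were tested with edgeR 4.0.16 in R 4.3.3 (TMM factors, default filter by group, robust quasi-likelihood fit, group as the only term, Benjamini-Hochberg adjustment at 0.05), and the SE is the absolute log2 fold change over sqrt(F). Total counts were 13107397 to 16218434 per library; this depth leaves the count of 0 to 18 of the rarest members open to counting error. Replicates differed beyond sampling noise (chi-square per degree of freedom at least 5.20). Tables were made in Python 3.11.15. In a simulation of this comparison over 11929 genes, 82.5% of 200 genes changed by a log2 fold change of 1 were recovered, 8.84% of the calls were false, and 0 genes were called when none was changed. Alternatives were DESeq2 1.42.0, RLE factors, total counts, no filter, a replicate block, scaling that left the alpha-defensin genes out, Y-linked counts as a covariate or as strata, and leaving out each library. The share per kilobase of all annotated exons and the share without Eef1a1 were added after the data were seen. The members, the gene lists and the genes named were chosen with earlier results of these data known, so no list was tested as a whole. Named were every called member, the 3 most abundant members per kilobase, Eif4a2, Eif4g1, Eif2s3x and Eif3a, every called pathway gene and Eef2, and others only to complete a group. The same-numbered TG and WT libraries deviated together with correlations of 0.08, 0.07, 0.29 and 0.23, and the labels tie no number to a shared animal or day, so the numbers were not taken as pairs.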

Additional observations from a re-analysis of the deposited data

Results flagged for a closer look

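Within 124 groups of 4 libraries (the tested members, the named pathway genes, the members' summed share and the 5 paralog ratios, in TG and in WT), 7 held a library set apart from the other 3 by Dixon's criterion, where chance at 1 in 20 gives 6.2. Eif2s1 reached 37.6 CPM in TG replicate 3, against 32.0 to 32.1 CPM in the other TG libraries. Its value still lay below every WT library. Eif2b4 was at 44.8 CPM in WT replicate 1, against 35.4 to 36.5 CPM in the other WT libraries, and its call was lost without that library. Among genes that were not called, Eif3e stood at 71.1 CPM in TG replicate 2, against 61.7 to 63.1 CPM. Eif3k stood at 59.1 CPM in TG replicate 4, against 51.4 to 52.7 CPM. Eef1d was at 69.3 CPM in WT replicate 2, against 79.1 to 80.3 CPM. In WT replicate 1, Gspt1 was at 133.6 CPM, against 141.5 to 142.5 CPM, and Pdcd4 was at 126.2 CPM, against 146.3 to 148.2 CPM. Both of these values lay apart from the TG libraries.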

How the results depend on the processing

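The 17 members called lower became 24 with DESeq2, 2 with total counts, 10 within the libraries without Y-linked counts and 0 within those with them. Leaving out 1 library gave 8 to 21 calls, with 8 both without TG replicate 1 and without TG replicate 2. All 17 were fitted below 0 under each of the 17 alternatives. With the replicate number as a block, 19 members were called lower, the 17 and Eif3j1 and Eif4e3, against 9.76% of all tested genes. The labels do not say that the numbers pair the libraries. Of the TG libraries, replicates 3 and 4 correlated best with their own number and replicates 1 and 2 did not, which does not settle whether the numbers mark pairs. The members' median log2 fold change of -0.23 became -0.11 with total counts and -0.17 within the libraries with Y-linked counts. Of the pathway genes, 5 were called lower, which became 9 with DESeq2, 2 with total counts, 3 within the libraries without Y-linked counts, 1 within the others, and 4 to 7 when 1 library was left out. The 1 called higher became 0 with total counts and within each kind of library, and 0 to 2 when 1 library was left out: 0 without TG replicates 1, 2 or 3 or WT replicates 1 or 4, and 2 without WT replicate 2. Over all tested genes, 985 were higher and 1151 lower, against 787 and 263 with total counts. The direction of Eef2 reversed to 0.074 with total counts. The single genes named gave 88 weaker, 2 stronger and 419 equal calls over the alternatives. The cause of these changes was not tested. The difference between groups in the members' summed share (TG minus WT) was -0.0433 percentage points. It became -0.0919 outside the alpha-defensin genes, where the groups no longer overlapped, -0.0394 without Eef1a1, -0.00699 and -0.00266 per kilobase of canonical transcript and of all annotated exons, and -0.0683 to -0.00927 when 1 library was left out, the last without WT replicate 3. The differences in the paralog ratios moved by less than the larger SD of the groups.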
